A study of Mus musculus with 13 samples.

Results

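Malat1, Neat1, Meg3, Rian, Mirg, Miat and Snhg11 are long noncoding RNAs that are known for staying in the nucleus or for being made there as hosts of small RNAs. They were the 7 genes taken by symbol from a deposited table of 34745 genes, and they were selected on earlier results of these same libraries, so their levels and differences are given here as a description. All 7 passed the filter on low counts that kept 17467 genes. RNA of the olfactory bulb, the brain's first relay for smell, was sequenced in 13 libraries from mice given fine particulate matter (PM2.5) and from controls. The Pmhigh-2nd group held 3 libraries of mice at 10 mg/kg, labelled with an interval of 3 days, and the Ctrl-2nd group held their 3 controls. The Pmlow-1st group held 3 libraries at 3 mg/kg with the same interval, and the Ctrl-1st group held 4 controls. All groups were wild type C57BL/6 mice aged 7 to 8 weeks per the labels, with no transgene or deletion named. Route, vehicle and what the set names stand for are not stated in the labels.

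Malat1 is among the most abundant nuclear RNAs and gathers at nuclear speckles, bodies rich in splicing factors. Neat1, its neighbour on the chromosome, is the scaffold on which paraspeckles are built. Meg3, Rian and Mirg are expressed from the maternal chromosome of the imprinted Dlk1-Dio3 domain, where Rian hosts C/D box snoRNAs and Mirg hosts a large cluster of miRNAs. Miat, also called Gomafu, is a neural RNA that collects in its own nuclear spots and binds splicing factors. Snhg11 is a host gene of snoRNAs with high expression in brain.

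The coordinates of all 7 genes in the deposited table were identical to those of GENCODE release M21 on GRCm38, the assembly also called mm10. Malat1 (ENSMUSG00000092341) lies at chr19:5795690-5802672 on the minus strand, and its annotated span of 6983 bases is exonic throughout. Neat1 (ENSMUSG00000092274) lies at chr19:5824708-5845478 on the same strand. Meg3 (ENSMUSG00000021268) at chr12:109541001-109571726, Rian (ENSMUSG00000097451) at chr12:109603940-109661716 and Mirg (ENSMUSG00000097391) at chr12:109729764-109749460 follow each other on the plus strand. Miat (ENSMUSG00000097767) lies at chr5:112213228-112229395 on the minus strand. Snhg11 (ENSMUSG00000044349) lies at chr2:158375638-158386145 on the plus strand and is typed as protein coding in GENCODE M21. Malat1, Meg3, Miat and Mirg each overlap 1 annotated gene on the opposite strand, Gm37376, Gm26906, Gm26953 and Gm24321 in that order, and the labels do not say how the counting treated strand.

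Starts of Malat1 and Meg3 are shown first. Over the 13 libraries their deviations from group means moved most closely together among these genes (Pearson's r = 0.93). Without libraries Pmhigh-2nd-3 and Ctrl-2nd-2 their r was 0.65, below the 0.76 of Malat1 with Rian. A link between motifs and levels was not tested. RefSeq windows of 250 bases before to 50 after the start (GRCm38.p6) matched 6 of the 7 genes by symbol. Capitals mark TGACG, the core of the cAMP response element, read on either strand (CGTCA on the printed strand). The Malat1 window at chr19:5802623-5802922 (minus strand) held 3 copies and the Meg3 window at chr12:109540746-109541045 (plus strand) held 2 that overlap. RefSeq has a second Meg3 window, at chr12:109545148-109545447, with 0 copies.
Malat1: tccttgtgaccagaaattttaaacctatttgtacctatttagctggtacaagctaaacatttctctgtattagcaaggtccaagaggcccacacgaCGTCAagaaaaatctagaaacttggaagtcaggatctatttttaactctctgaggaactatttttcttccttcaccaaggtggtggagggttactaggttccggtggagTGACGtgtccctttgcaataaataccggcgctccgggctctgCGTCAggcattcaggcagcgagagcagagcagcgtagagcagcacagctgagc
Meg3: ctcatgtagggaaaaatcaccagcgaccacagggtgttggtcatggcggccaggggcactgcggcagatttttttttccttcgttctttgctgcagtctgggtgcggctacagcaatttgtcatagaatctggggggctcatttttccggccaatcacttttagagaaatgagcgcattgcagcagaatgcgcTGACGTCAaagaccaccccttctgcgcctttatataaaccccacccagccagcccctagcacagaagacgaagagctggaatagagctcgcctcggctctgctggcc
TGACG stood in 20.8% of 32851 windows of this length. The overlapping pair in Meg3 forms TGACGTCA, the full palindromic element, which stood in 1.79% of the windows. The printed Meg3 window also held TATAAA, found in 13.6% of windows, and Malat1 did not. The second Meg3 window and those of Rian, Mirg, Miat and Snhg11 held none of these 3 motifs. The Mirg window, at chr12:109734731-109735030, follows the RefSeq start and lies inside the GENCODE span given above. These are matches of letters and not measured binding.

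Miat is known for repeats of ACTAAC, which resembles the branch point of introns and is bound by splicing factor 1. Its longest GENCODE transcript, Miat-205 of 9163 bases, held 11 copies of ACTAAC on the sense strand, and bases 4938 to 5076 held 4 of them, in capitals.
Miat: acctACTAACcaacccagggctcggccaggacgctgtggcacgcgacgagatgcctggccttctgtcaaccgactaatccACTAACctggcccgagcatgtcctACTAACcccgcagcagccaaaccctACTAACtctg
Among 501 lincRNA genes with a transcript of at least 3000 bases, 2 held 11 or more copies and 45.7% held any. Miat, typed lincRNA, was not kept out of this count, and the set was not matched to its length. Neat1 held 4 copies, Meg3, Mirg and Snhg11 held 1 each, and Malat1 and Rian held 0.

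Host roles of the Dlk1-Dio3 RNAs are visible in the RefSeq miRNA annotation. Within their spans and on their strand lay 26 mature miRNAs for Mirg, 6 for Rian and 3 for Meg3, and 0 for the other 4 genes. These had 34 different seeds (bases 2 to 8, in capitals), and 1 seed was shared by more than 1 miRNA, namely by miR-453 and miR-496a-5p. miR-370-3p and miR-134-5p are given as known brain miRNAs of Rian and Mirg. Their mature levels were not measured, since the libraries counted genes.
mmu-miR-370-3p: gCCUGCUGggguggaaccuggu
mmu-miR-134-5p: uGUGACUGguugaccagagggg
mmu-miR-453: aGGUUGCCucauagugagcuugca
mmu-miR-496a-5p: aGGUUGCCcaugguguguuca

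Total counts were 20.2 to 25.5 M in Pmhigh-2nd, 15.4 to 27 M in Ctrl-2nd, 14.3 to 14.7 M in Pmlow-1st and 13 to 14.1 M in Ctrl-1st. Libraries Pmhigh-2nd-3 and Ctrl-2nd-2 stood apart from the rest of their groups. The members' fold changes and their likeness are also given without them. Levels are given as shares of the total count, as CPM (counts scaled to a common library size) or, between genes, as FPKM (the deposited value per length and depth). Olfactory bulb markers Doc2g, Cdhr1, Tbx21, Eomes, Th and Sp8 were present in all 13 libraries, from 24.4 to 43.5 CPM for Tbx21 up to 534 to 820 CPM for Cdhr1. Xist, the RNA of the inactive X chromosome, had 0.0992 to 0.403 CPM in Pmhigh-2nd and 0.116 to 0.555 CPM in Ctrl-2nd, but 2410 to 2570 CPM in Pmlow-1st and 2250 to 2710 CPM in Ctrl-1st. The series' design text describes male mice, and the 7 libraries of the 1st set go against that description. The sets therefore differ in Xist, and by it in the apparent sex of the mice, as well as in depth. Any difference between the sets cannot be told apart from these. In bulk RNA, fewer cells of a type and less RNA per cell cannot be told apart either.

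Ranks by FPKM rest on the gene lengths behind the deposited values, which were not checked. By FPKM, Malat1 stood far above the other members. It had 1020 to 2270 FPKM over the 13 libraries, with a mean of 1870 ± 406 FPKM (SD), and ranked 7 to 12 among all genes by FPKM. By count it ranked 2 in 11 libraries and 3 in libraries Ctrl-2nd-2 and Pmhigh-2nd-3. Snhg11 followed with 138 ± 30.9 FPKM and Meg3 with 71.7 ± 22.7 FPKM (SD, n = 13), and their ranges over libraries, 80.5 to 172 and 27.2 to 97.0 FPKM, overlapped. Rian had 22 ± 2.38 FPKM, below every value of Meg3. Miat with 5.38 ± 0.955 FPKM and Mirg with 4.80 ± 0.546 FPKM had overlapping ranges. Neat1 was lowest with 2.28 ± 1.04 FPKM, and its range of 0.453 to 3.82 FPKM reached into that of Miat.

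Counting error was small beside these spreads for the abundant genes. The 95% Wilson interval of a share spanned at most 0.4% of its value to each side for Malat1, 1.5% for Snhg11 and 1.4% for Meg3. It reached 2.4% for Rian, 5.6% for Miat, 8% for Mirg and 12% for Neat1, whose counts ran from 287 to 1389. Intervals cover counting error only, as the reads carry no molecular identifiers.

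Shares at the high dose overlapped those of the controls of the same set for all 7 RNAs. Together the 7 genes took 1.72% ± 0.327 of all counts in Pmhigh-2nd and 1.75% ± 0.523 in Ctrl-2nd (SD, n = 3 each). Malat1 alone took 1.64, 1.4 and 1.15% of counts in the Pmhigh-2nd libraries, against 1.55, 0.955 and 1.83% in the Ctrl-2nd libraries. All 3 exposed values lie between the lowest and highest control. Fold changes come from edgeR's fit across all genes, and a gene is called where its p adjusted over all genes is under 0.05. The log2 fold change of Malat1 was -0.05 (SE 0.18), with a 95% interval of -0.42 to 0.33.

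Neat1 took 0.0043, 0.00503 and 0.00112% of counts in Pmhigh-2nd, against 0.00435, 0.00254 and 0.00466% in Ctrl-2nd. Library Pmhigh-2nd-3 held the lowest Neat1 share of all 13 libraries. Its log2 fold change was -0.14 (SE 0.50) with an interval of -1.26 to 0.97. The sign turned when libraries were left out: it was 0.29 without Pmhigh-2nd-3, -0.38 without Ctrl-2nd-2 and 0.05 without both.

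Meg3 took 0.175, 0.152 and 0.0826% in Pmhigh-2nd, against 0.150, 0.0692 and 0.155% in Ctrl-2nd. Each group had 1 library far below the other two. Its domain partners were steadier. Rian took 0.0499, 0.0426 and 0.0407% in Pmhigh-2nd, against 0.0496, 0.0410 and 0.0519% in Ctrl-2nd. Mirg took 0.00628, 0.00596 and 0.00527% in Pmhigh-2nd, against 0.00558, 0.0053 and 0.0061% in Ctrl-2nd. The groups overlapped for all 3, with log2 fold changes of 0.13 (SE 0.29) for Meg3, -0.10 (SE 0.09) for Rian and 0.04 (SE 0.14) for Mirg.

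Miat showed the widest difference of the 7 at this dose. Its share was 0.0117, 0.00917 and 0.0106% in Pmhigh-2nd, against 0.00994, 0.00565 and 0.00906% in Ctrl-2nd, so the groups overlapped. The log2 fold change was 0.36 (SE 0.19; interval -0.04 to 0.75; adjusted p = 0.589 over all genes). Without libraries Ctrl-2nd-2 and Pmhigh-2nd-3 it was 0.13 (SE 0.18). Snhg11 took 0.137, 0.135 and 0.0866% in Pmhigh-2nd, against 0.117, 0.0934 and 0.140% in Ctrl-2nd, with a log2 fold change of 0.03 (SE 0.15).

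Groups overlapped at the low dose for every one of the 7 genes as well. The 7 genes summed to 2.51% ± 0.0905 of counts in Pmlow-1st (n = 3) and 2.49% ± 0.102 in Ctrl-1st (SD, n = 4). Malat1 took 1.98, 2 and 2.12% in Pmlow-1st, against 2.07, 1.97, 1.90 and 2.11% in Ctrl-1st. Its log2 fold change was 0.02 (SE 0.16), with an interval of -0.33 to 0.37. Neat1 took 0.00947, 0.00753 and 0.00379% in Pmlow-1st, against 0.00684, 0.00878, 0.0059 and 0.00904% in Ctrl-1st. The exposed Neat1 values thus lay on both sides of the controls, with a log2 fold change of -0.14 (SE 0.47).

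Meg3 took 0.204, 0.232 and 0.247% in Pmlow-1st, against 0.230, 0.229, 0.219 and 0.224% in Ctrl-1st, with a log2 fold change of 0.02 (SE 0.27). Rian lay between 0.0541 and 0.0557% in Pmlow-1st and between 0.0519 and 0.0561% in Ctrl-1st (0.03, SE 0.09). Mirg lay between 0.00512 and 0.00656% in Pmlow-1st and between 0.00463 and 0.00704% in Ctrl-1st (0.04, SE 0.13). Miat took 0.00828, 0.00874 and 0.0117% in Pmlow-1st, against 0.0115, 0.0110, 0.0110 and 0.00887% in Ctrl-1st (-0.14, SE 0.17). Snhg11 was nearly constant, with 0.177, 0.177 and 0.175% in Pmlow-1st, against 0.167, 0.169, 0.174 and 0.185% in Ctrl-1st (0.03, SE 0.14).

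**Figure D1:**
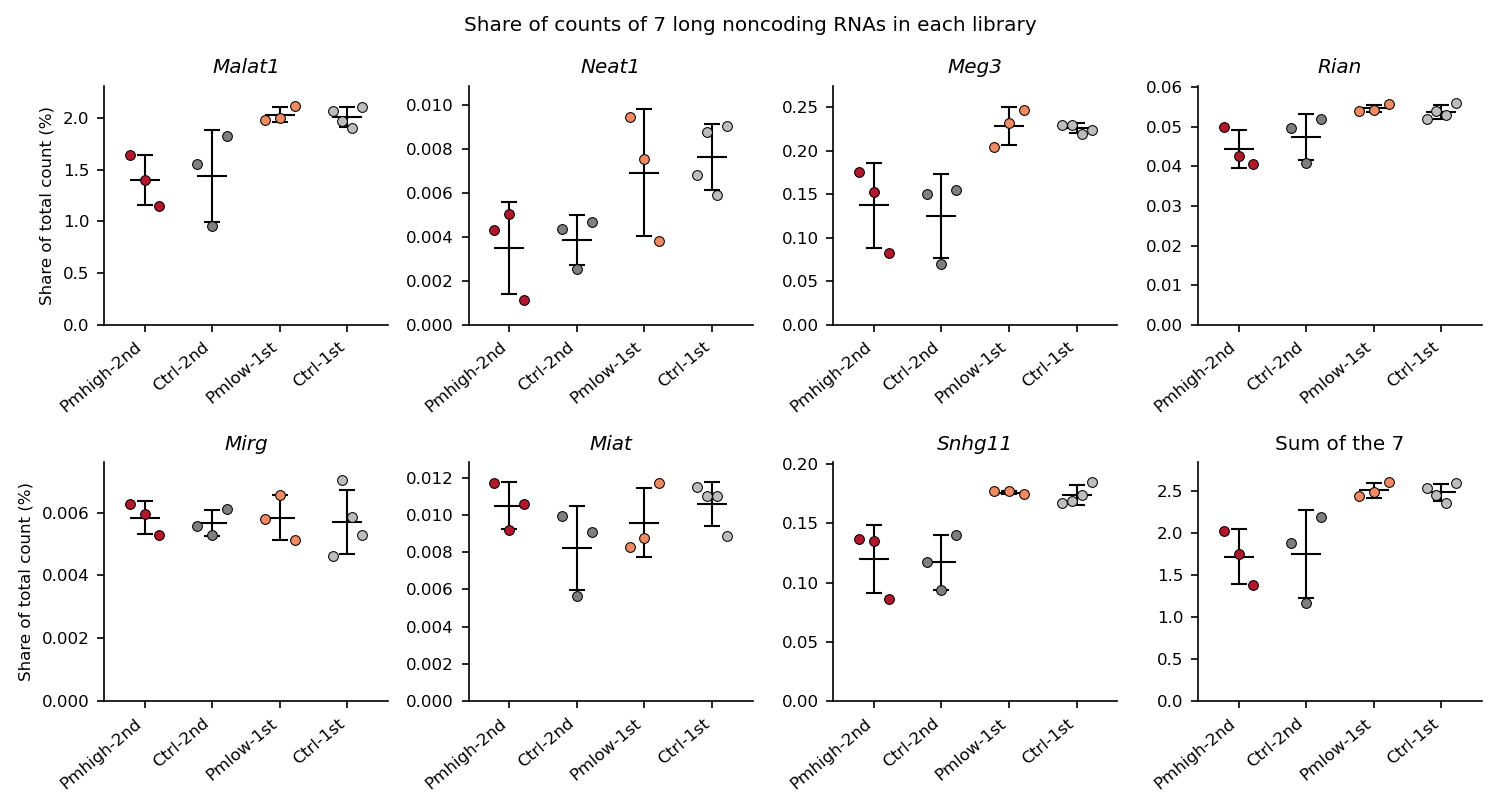
Share of the total count in percent for each of the 7 RNAs and for their sum, with 1 point per library and the mean and SD of each group as a bar. Malat1, Meg3 and Snhg11 lie lower in every library of the 2nd set than in any of the 1st, while each PM2.5 group overlaps its own controls.

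No member passed an adjusted p of 0.05 in edgeR's test at either dose, and none had an unadjusted p under 0.05. Over all genes tested, 0.641% were called at the high dose (91 higher and 21 lower) and 0% at the low dose. An unadjusted p under 0.05 was found for 1685 genes at the high dose and 429 at the low dose. DESeq2 called 19 genes and limma 2 at the low dose, with 0 members under either. Groups without overlap were found for 0 of the 7 members at either dose, beside 10.4% of all genes at the high dose and 6.62% at the low dose. The median log2 fold change of the 7 was 0.03 at the high dose and 0.02 at the low dose, beside -0.01 and 0 for all genes. The difference of the high-dose and low-dose responses was called for 0 members and for 0.00573% of all genes (1 gene, with 1046 at an unadjusted p under 0.05). That difference was largest for Miat, at 0.50 (SE 0.25; interval -0.05 to 1.05; adjusted p = 0.877). Intervals of the log2 fold change were narrowest for Rian, -0.30 to 0.10 at the high dose and -0.15 to 0.22 at the low dose.

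Mean shares of all 7 RNAs were lower in the controls of the 2nd set than in those of the 1st, with Mirg nearly equal. On the scaled counts of the fit 6 of the 7 log2 fold changes were negative, Mirg had 0.04, and 1 gene was called. Malat1 took 0.955 to 1.83% of counts in Ctrl-2nd and 1.90 to 2.11% in Ctrl-1st, so the groups did not overlap. Its mean was 1.44% ± 0.445 in Ctrl-2nd (n = 3) and 2.01% ± 0.0957 in Ctrl-1st (SD, n = 4), and its log2 fold change was -0.43 (SE 0.17; interval -0.78 to -0.08; adjusted p = 0.0804). Meg3 averaged 0.125% ± 0.0481 in Ctrl-2nd and 0.226% ± 0.00545 in Ctrl-1st, and its log2 fold change was -0.81 (interval -1.41 to -0.21; SE 0.27; adjusted p = 0.0604). Snhg11 averaged 0.117% ± 0.0234 in Ctrl-2nd and 0.174% ± 0.00841 in Ctrl-1st. Its log2 fold change of -0.52 (SE 0.15; interval -0.83 to -0.21) was the only one of the 7 to pass the threshold in this fit, with an adjusted p = 0.0237.

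Neat1 had the widest difference and the widest error. It averaged 0.00385% ± 0.00115 in Ctrl-2nd and 0.00764% ± 0.00152 in Ctrl-1st, and its groups did not overlap. The fitted log2 difference was -0.94 (SE 0.48; interval -2.01 to 0.12; adjusted p = 0.185). Miat averaged 0.00822% ± 0.00227 in Ctrl-2nd and 0.0106% ± 0.00118 in Ctrl-1st (-0.32, SE 0.17), a difference that was -0.11 without Ctrl-2nd-2. The domain partners of Meg3 had smaller values. Rian averaged 0.0475% ± 0.00577 in Ctrl-2nd and 0.0537% ± 0.00178 in Ctrl-1st (-0.12, SE 0.09), and Mirg averaged 0.00566% ± 0.000408 in Ctrl-2nd and 0.0057% ± 0.00103 in Ctrl-1st (0.04, SE 0.13).

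In this comparison 1 of the 7 members was called, beside 19.3% of all genes in either direction and 8.74% lower. Groups did not overlap for 4 members, all lower in Ctrl-2nd, beside 30.4% of all genes in either direction and 14.6% lower. Taking exposed and control libraries together, the 6 libraries of the 2nd set lay below the 7 of the 1st for 3 members (Malat1, Meg3 and Snhg11), beside 6.52% of all genes. The median log2 fold change of the 7 was -0.43, beside -0.02 for all genes. Without Pmhigh-2nd-3 and Ctrl-2nd-2 it was -0.20, beside -0.01 for all genes.

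The call of Snhg11 was lost in 3 of the 13 fits that left out 1 library. It was lost without Ctrl-2nd-2 (-0.39, adjusted p = 0.133), without Ctrl-2nd-1 (-0.54, adjusted p = 0.0561) and without Ctrl-1st-4 (-0.49, adjusted p = 0.0571). Meg3 was called without Ctrl-2nd-3 (-0.98, adjusted p = 0.0495) and without Pmhigh-2nd-3 (-0.81, adjusted p = 0.0275), and Malat1 was called without Ctrl-2nd-3 (-0.62, adjusted p = 0.0188). The direction stayed negative for these 3 genes whichever library was left out. Some markers of cell types were also called between the same controls, beside 10.5% of all genes called higher and 8.74% lower. Neuron markers summed to 7720 to 9100 CPM in Ctrl-2nd and 6580 to 7150 CPM in Ctrl-1st, with 4 of 7 called higher. Endothelial markers summed to 147 to 215 CPM in Ctrl-2nd and 229 to 268 CPM in Ctrl-1st, with 3 of 5 called lower. Of 5 markers each, 1 was called higher for oligodendrocytes and 1 lower for microglia, and the lists for astrocytes, cortex and striatum, olfactory epithelium and blood had 0 called. The part of these cell types in the difference of the noncoding RNAs was not tested.

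**Figure D2:**
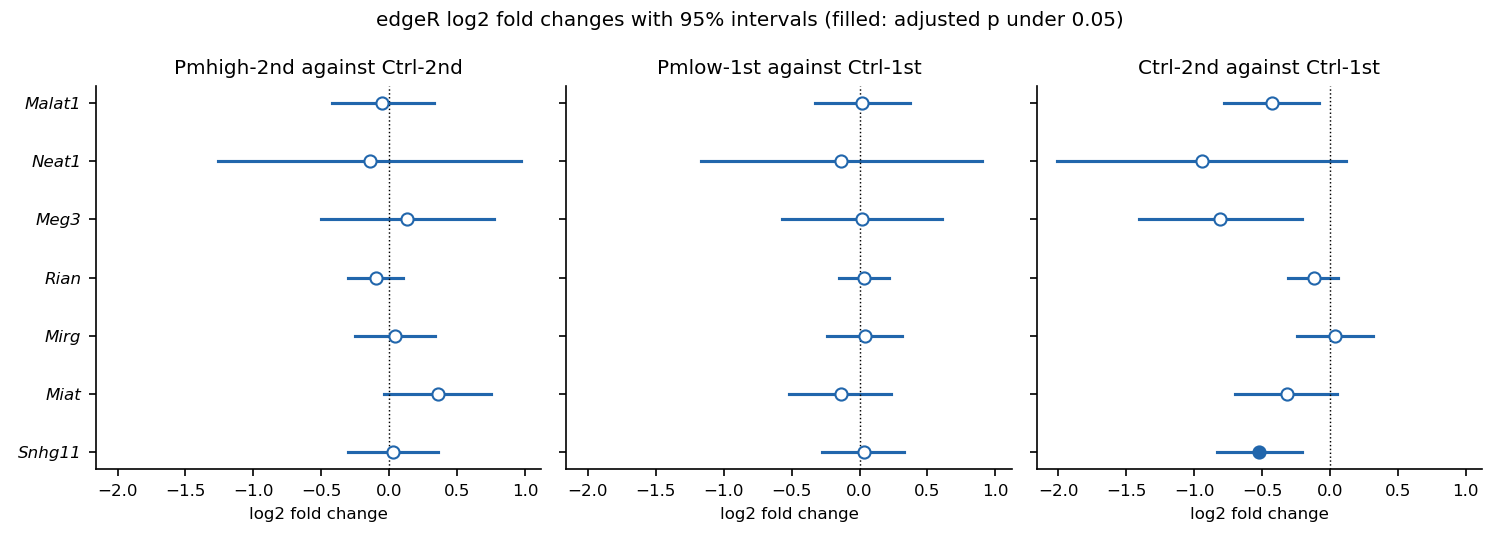
edgeR log2 fold changes of the 7 RNAs (points) with 95% intervals (lines) in the 3 comparisons, filled where the adjusted p over all genes was under 0.05. Values at both doses scatter around 0, and the controls of the 2nd set lie below those of the 1st for 6 of the 7, with Snhg11 at -0.52 as the filled point.

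Libraries of 1 group lay further apart in the 2nd set than in the 1st for 6 of the 7 RNAs. The pooled within-group SD of log2 CPM for Malat1 was 0.37 in the 2nd set and 0.06 in the 1st set. For Meg3 it was 0.60 in the 2nd set and 0.10 in the 1st set, and for Snhg11 it was 0.32 and 0.05 in the same order. Rian had 0.15 in the 2nd set and 0.04 in the 1st set. Mirg ran the other way, with 0.11 in the 2nd set and 0.23 in the 1st set. The median over all genes was 0.24 in the 2nd set and 0.15 in the 1st set.

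Libraries Ctrl-2nd-2 and Pmhigh-2nd-3 stood apart for most of these RNAs. They were the lowest pair of the 13 for Malat1, Neat1, Meg3, Rian and Snhg11, with the exposed library lowest for Neat1, Rian and Snhg11 and the control library lowest for Malat1 and Meg3. Miat was lowest in Ctrl-2nd-2 but not low in Pmhigh-2nd-3. Mirg was lowest in Ctrl-1st-1. In log2 CPM relative to its group mean, Meg3 stood at -0.65 in Pmhigh-2nd-3 and -0.73 in Ctrl-2nd-2, and Malat1 at -0.27 in Pmhigh-2nd-3 and -0.51 in Ctrl-2nd-2. The same libraries were the deepest of their groups, with 25.5 M counts in Pmhigh-2nd-3 and 27 M in Ctrl-2nd-2. Mitochondrial genes took 2.70% of counts in Pmhigh-2nd-3 and 2.90% in Ctrl-2nd-2, the highest shares of the 13, where the lowest was 2.11%. Pmhigh-2nd-3 also had the highest sums of cortex and striatum markers, 134 CPM against 53.0 to 73.8 CPM in the other libraries, and of blood markers, 302 CPM. The part of these measures in the low values was not tested.

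Both libraries were then left out. The log2 fold changes at the high dose became -0.15 (SE 0.10) for Malat1 and 0.10 (SE 0.10) for Meg3, with 0 members called beside 0.747% of all genes. The summed share of the 7 averaged 1.89% in Pmhigh-2nd and 2.04% in Ctrl-2nd without them. At the low dose all 7 values stayed between -0.15 and 0.03. Snhg11 had 0.08 (SE 0.08), Rian -0.14 (SE 0.08) and Mirg 0.07 (SE 0.16) at the high dose. Between the controls, Meg3 (-0.51, SE 0.09, adjusted p = 0.00253) and Snhg11 (-0.38, SE 0.07, adjusted p = 0.00496) were called, beside 12.8% of all genes. Malat1 came to -0.20 (SE 0.08, adjusted p = 0.132), Neat1 to -0.71 (SE 0.34), Miat to -0.10 (SE 0.16), Rian to -0.03 (SE 0.07) and Mirg to 0.09 (SE 0.14). This alternative was chosen after seeing the data.

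**Figure D3:**
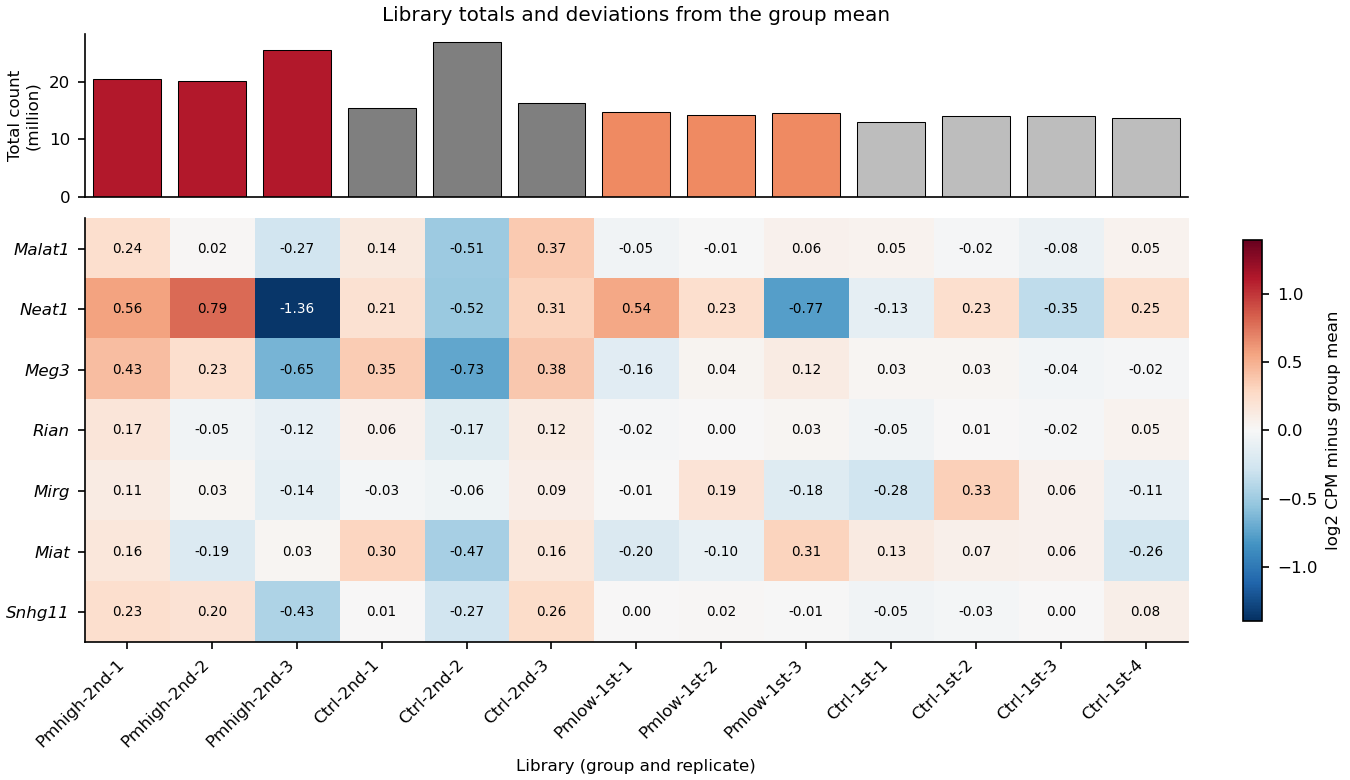
Total count of each library in M (bars) above the deviation of each RNA from its group mean in log2 CPM (colour and printed value). Pmhigh-2nd-3 and Ctrl-2nd-2, the tallest bars of their groups, hold the only negative values of Malat1, Meg3, Neat1 and Snhg11 in the 2nd set, and the 1st set is pale except for Neat1, Mirg and Miat.

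Over all 13 libraries, the genes most like Malat1 were mostly of types other than protein coding. Likeness was measured as Pearson's r of log2 CPM deviations from the group means over the 13 libraries, among 10892 genes with a mean of at least 10 CPM. Each point is a library with its own depth, and libraries Pmhigh-2nd-3 and Ctrl-2nd-2 hold the lowest deviations of Malat1, -0.27 and -0.51. Named genes leave out bare gene-model names (Gm with a number, or names ending in Rik). Among the rest, the most like was Kcnq1ot1, an imprinted antisense RNA of the Kcnq1 domain, with r = 0.99. Mast4, a kinase gene, also had r = 0.99, Hmbox1, a homeobox gene, had 0.98, and Cacna1e, a calcium channel gene, had 0.97. Dlx6os2 with 0.98 and the clone-named transcripts RP24-333B11.4, RP23-385F8.3 and RP23-62G15.1 with 0.97 to 0.99 completed the 8 most like genes under that rule. Over the 11 libraries without Pmhigh-2nd-3 and Ctrl-2nd-2, the 8 genes had r from 0.77 to 0.93. Within the 7 libraries of the 1st set, the 8 genes had r from 0.25 (Cacna1e) to 0.89 (RP24-333B11.4), with 0.65 for Kcnq1ot1.

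Of the 100 genes most like Malat1 over the 13 libraries, gene-model names included, 78 were not typed as protein coding, where 4.32% of all genes of that level were not. The types were not counted again without Pmhigh-2nd-3 and Ctrl-2nd-2, which hold the lowest Malat1 deviations. By GENCODE type, 56 of the 100 were TEC (transcripts to be experimentally checked, of no settled type), 13 sense intronic, 6 lincRNA and 22 protein coding. Of the 100 most opposite, 1 was not. Leading opposite genes, with gene-model names left out and chosen after their values were seen, were Uap1l1, Atp6v1b2, Atp6v0d1 and Dnal4, each with r = -0.98. Within the 1st set their r ran from -0.78 (Atp6v0d1) to -0.66 (Uap1l1). Atp6v1b2 and Atp6v0d1 encode subunits of the vacuolar proton pump. Among the members, Meg3 had r = 0.93 with Malat1 (place 177 of the other genes) and Rian 0.91 (place 270). Snhg11 had 0.84, Miat 0.64, Neat1 0.56 and Mirg 0.20. Without Pmhigh-2nd-3 and Ctrl-2nd-2 these values were 0.65 for Meg3, 0.76 for Rian, 0.61 for Snhg11 and 0.25 for Miat, and they turned to -0.19 for Neat1 and -0.13 for Mirg. Within the 1st set Meg3 had 0.61, Rian 0.43, Miat 0.21, Snhg11 0.10, Neat1 -0.28 and Mirg -0.58.

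Related genes were counted in 6 lists of other noncoding RNAs and nuclear proteins, 85 of them tested. None was called at the high or the low dose in edgeR's test, beside 0.641% and 0% of all genes. An unadjusted p under 0.05 was found for 3 of them at the high dose and 0 at the low dose. Over all 17467 genes tested it was found for 1685 and 429. Nearest to a call at the high dose was Hnrnpk, an RNA-binding protein of paraspeckles, with 137 to 152 CPM in Pmhigh-2nd and 161 to 170 CPM in Ctrl-2nd (log2 fold change -0.23, SE 0.07, adjusted p = 0.243). Pspc1, a core paraspeckle protein, had 0.31 (SE 0.14), and Mir124a-1hg, a host of the neuronal miR-124, had -0.36 (SE 0.13). Dlx6os1, a noncoding RNA beside Dlx6, had -0.44 (SE 0.21), and Tarbp2, a partner of Dicer, had -0.30 (SE 0.15). Smallest p-values of the other lists at the high dose belonged to Snhg5 (-0.41, SE 0.22), Dancr (-0.55, SE 0.36), Ddx39b (-0.15, SE 0.09), Pnisr (0.29, SE 0.17) and Begain (-0.16, SE 0.11). At the low dose the leading values were those of Pnisr, a speckle protein (-0.34, SE 0.16), Snhg18 (-0.44, SE 0.26), Xpo5, the exporter of miRNA precursors (0.11, SE 0.07), and Sfpq, a core paraspeckle protein (0.12, SE 0.09), each with adjusted p = 1. The remaining pairs of smallest p were Dlk1 (-0.35, SE 0.43) and Drosha (-0.08, SE 0.08) at the high dose, and H19 (0.57, SE 0.45), Dleu2 (0.20, SE 0.16), Snhg17 (-0.18, SE 0.13), Begain (0.05, SE 0.11), Dio3 (-0.21, SE 0.64), Hnrnph3 (-0.14, SE 0.13), Srsf7 (0.09, SE 0.09) and Tarbp2 (-0.21, SE 0.14) at the low dose.

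Between the controls 20 of the 85 were called, 23.5% beside 19.3% of all genes. Of 23 other long noncoding RNAs, 4 were lower in Ctrl-2nd and 1 was higher, with a list median of -0.13. The 3 largest of the called falls were of genes of the X inactivation centre. Xist had a mean of 0.29 CPM in Ctrl-2nd and 2410 CPM in Ctrl-1st (log2 fold change -13.12, SE 0.28). Jpx had 10.2 ± 2.44 CPM in Ctrl-2nd and 24.5 ± 1.84 CPM in Ctrl-1st (-1.28, SE 0.18, adjusted p = 0.000898), and Ftx had 61.5 ± 17.4 CPM in Ctrl-2nd and 105 ± 9.99 CPM in Ctrl-1st (-0.78, SE 0.22, adjusted p = 0.0256). Snhg14, the imprinted RNA that runs antisense to Ube3a, had 407 ± 135 CPM in Ctrl-2nd and 653 ± 53.7 CPM in Ctrl-1st (-0.68, SE 0.19, adjusted p = 0.0243). C130071C03Rik was higher, with 224 ± 19 CPM in Ctrl-2nd and 178 ± 14.4 CPM in Ctrl-1st.

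Splicing genes of the nuclear speckle went both ways between the controls. Of 24, 8 were lower and 4 higher in Ctrl-2nd, beside 8.74% of all genes called lower and 10.5% higher, with a median of -0.05. The 8 lower genes included Pnisr (-0.86, SE 0.17, adjusted p = 0.00509), Son, a scaffold of the speckle (-0.31, SE 0.09), Srrm2, another scaffold (-0.57, SE 0.18), and the kinases Clk1 (-0.50, SE 0.11) and Clk4 (-0.50, SE 0.12), which phosphorylate SR proteins. Srsf5, Srsf11 and Rbm25 were the others, from -0.44 to -0.40. The 4 higher genes were U2af1 (0.44, SE 0.13) and U2af2, which recognise the 3' splice site, and the SR proteins Srsf3 and Srsf7. Pnisr had 115 ± 25.5 CPM in Ctrl-2nd and 208 ± 17.8 CPM in Ctrl-1st.

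Of 14 paraspeckle proteins, 3 were called higher and 0 lower, beside 10.5% of all genes called higher and 8.74% lower, and their median was 0.06. Hnrnpk rose by 0.29 (SE 0.07, adjusted p = 0.0114), Nudt21 by 0.31 (SE 0.09) and Nono by 0.27 (SE 0.08), and Neat1, the RNA around which paraspeckles form, had the uncalled -0.94 (SE 0.48) given above. Of 13 snoRNA host RNAs 0 were called. Their median was 0.14, led by Snhg8 (0.52, SE 0.19, adjusted p = 0.0724) and Snhg6 (0.43, SE 0.19), where Snhg11 had -0.52. The 4 tested genes of the Dlk1-Dio3 domain and the 7 of miRNA processing gave 0 calls. In the domain, B830012L14Rik, a noncoding RNA between Meg3 and Mirg, had 13.8 ± 6.77 CPM in Ctrl-2nd and 22.8 ± 1.60 CPM in Ctrl-1st (-0.74, SE 0.30, adjusted p = 0.0995), and Begain had 0.20 (SE 0.11). Dicer1, which cuts miRNA precursors, had -0.28 (SE 0.12) and Drosha, which acts a step earlier, had 0.15 (SE 0.07). The lists were drawn up with earlier results of these data known, and single libraries moved the number of listed genes called. It was 5 without Ctrl-2nd-2, 9 without Ctrl-1st-1, 10 without Ctrl-1st-2 and 13 without Ctrl-1st-4, and at most 26, without Ctrl-2nd-3.

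**Figure D4:**
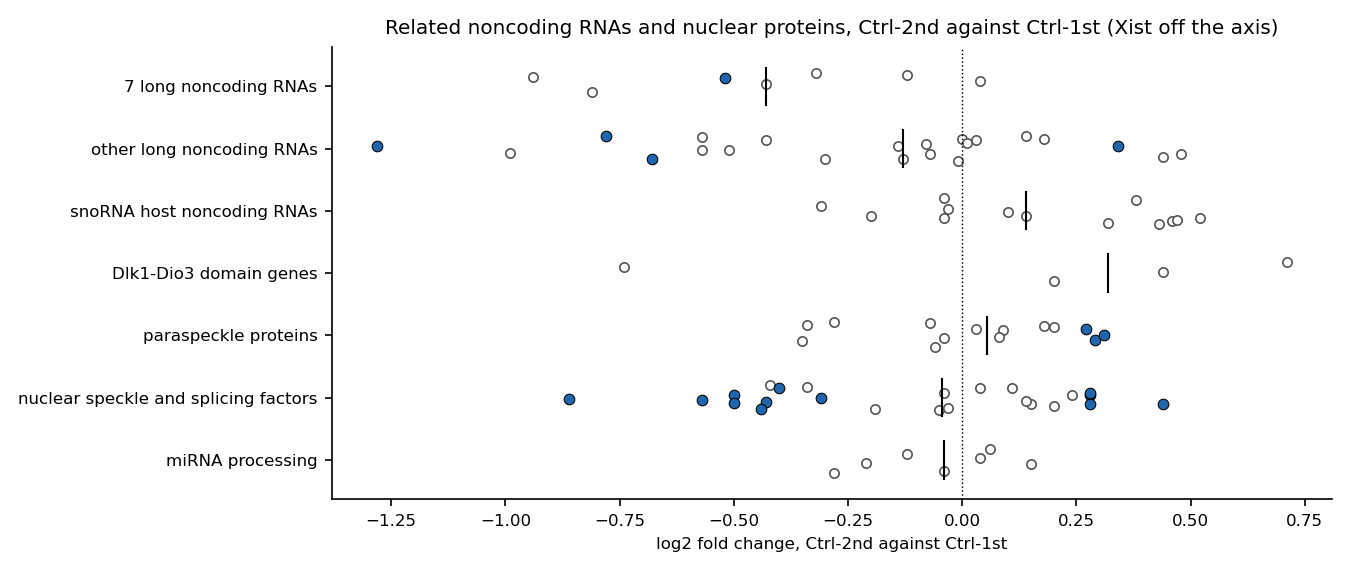
log2 fold changes of Ctrl-2nd against Ctrl-1st for the 7 RNAs and 6 lists of related genes, 1 point per gene, filled where the adjusted p was under 0.05, with the list's median as a vertical line. Xist at -13.12 lies off the axis and is counted in its list's median. The speckle list has filled points on both sides of 0, the paraspeckle list only above 0.

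Genes next to the members were read from the deposited coordinates within 100 kb. Only genes that passed the filter with a mean of at least 1 CPM were taken. None of the 10 near Malat1, the 11 near Neat1 or the 3 near each of the other members was called at either dose. Ehbp1l1 near Malat1 and Neat1 had the smallest p there at both doses (0.36, SE 0.20 at the high dose and -0.41, SE 0.20 at the low dose). Between the controls the only called neighbour was Ltbp3, a binding protein of latent TGF-beta, with -0.33 (SE 0.10, adjusted p = 0.0274) and a mean of 64.1 CPM in Ctrl-2nd and 80.5 CPM in Ctrl-1st. Neighbours of smallest p at the other loci were Gm37899 beside Meg3, Rian and Mirg (-0.42, SE 0.15, adjusted p = 0.0675), Tfip11 beside Miat (0.21, SE 0.10) and Lbp beside Snhg11 (-1.15, SE 0.52), the last with 1.08 (SE 0.54) at the high dose.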

How the data were processed

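RNA-seq of 13 olfactory bulb samples (total RNA, RNeasy mini kit, TruSeq Stranded Total RNA kit, per the labels' protocols) was analysed from 1 table. The authors deposited a raw count and an FPKM value per gene and library. HISAT2 and mm10 are named in the submitters' processing notes, and the counting program is not given in the sources used here. The deposited FPKM is the count scaled by the library total and a fixed factor per gene, with no other scaling between libraries. The largest relative deviation was 5.88e-07 over 2894 genes with at least 1000 counts in each library. The factor per gene was not compared with annotated gene lengths. Groups and replicate numbers come from the labels, which do not say that replicates are separate animals, so p-values measure the spread between samples, which may be technical.

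All 13 libraries entered 1 fit of the 4 groups by edgeR's robust quasi-likelihood test (edgeR 4.0.16, R 4.3.3, genes kept by filterByExpr, scaling by TMM), with Benjamini-Hochberg adjustment over 17467 genes and a threshold of 0.05. SE was derived from the effect size and the F statistic (effect over root F) and is approximate, as are the 95% intervals made from it. CPM uses the TMM-adjusted total, and shares use the plain total. No pair of libraries within a group agreed within sampling noise (lowest chi-square per gene 6.09). The members and all gene lists were chosen with earlier results of these data known. Named genes are the members, all called genes of the 6 lists and the 2 genes of smallest p per list and comparison. The 8 genes most like Malat1, bare gene-model names left out, and the neighbours of smallest p are named too. Alternatives were DESeq2 1.42.0, limma 3.58.1 (trend on log2(FPKM + 1), pseudocount 1), other scaling factors and filters, a replicate block, separate fits and leaving out libraries. The scripts were tested on simulated data.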

Additional observations from a re-analysis of the deposited data

How the results depend on the processing

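Member calls at both doses, and for the difference of the doses, were 0 under all alternatives run and without any 1 library (0 to 0). Of 630 member fold changes under alternatives, 620 kept their side of the threshold, 6 newly passed it and 4 no longer did. Signs of uncalled values near 0 turned when 1 library was left out, at the high dose from -0.28 to 0.15 for Malat1, -0.51 to 0.29 for Neat1, -0.16 to 0.40 for Meg3 and -0.11 to 0.22 for Snhg11. Between the controls, 1 member was called in edgeR's fit, 2 by DESeq2, 2 by limma and 2 without Ctrl-2nd-2 and Pmhigh-2nd-3 (in each, Meg3 beside Snhg11), and 0 to 3 when 1 library was left out. Listed genes called between the controls numbered 20, or 5 to 26 when 1 library was left out, and 0 to 0 at either dose. The summed share was 2.66% in Pmlow-1st and 2.63% in Ctrl-1st when mitochondrial genes, Gm26917 and Gm42418 were kept out of the total. Values of the 2nd set under that total are not given here. Leaving out 1 library gave 1.56 to 1.89% in Pmhigh-2nd, 1.53 to 2.04% in Ctrl-2nd, 2.46 to 2.55% in Pmlow-1st and 2.45 to 2.53% in Ctrl-1st. The cause of these changes was not tested.

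Samples with the same number did not deviate together (r from -0.34 to 0.13). These r come from groups of 3 or 4 libraries. In the 2nd set the libraries that stood apart, Ctrl-2nd-2 and Pmhigh-2nd-3, carry different numbers. Whether samples of 1 number share a pairing or batch is therefore not settled by this check. With the number as a replicate block, 0 members and 8 listed genes were called between the controls, with Snhg11 at -0.49 (adjusted p = 0.0954).

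Over all genes, calls at the high dose numbered 112, against 291 by DESeq2, 69 with at least 1 CPM in every library, 31 with the replicate block, 4 in a separate fit of the 2nd set and 21 to 138 when 1 library was left out. At the low dose they numbered 0, against 19 by DESeq2, 2 by limma, 9 in a separate fit of the 1st set and 0 to 2 when 1 library was left out. Between the controls they numbered 3364, against 1474 with the replicate block and 1340 to 4073 when 1 library was left out. Neat1 had 287 to 1389 counts a library, a counting half-width of at most 12% of its share, and a within-group SD of log2 CPM of 0.89 in the 2nd set and 0.49 in the 1st.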
